A study of Mus musculus with 20 samples.

Results

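The genes of the opioid system were followed in RNA from Trpv1 neurons of the mouse dorsal root ganglion (DRG). They are the 4 receptor genes Oprm1, Oprd1, Oprk1 and Oprl1 and the 4 peptide precursor genes Penk, Pdyn, Pnoc and Pomc. These 8 genes were taken by Ensembl identifier from the 37620 genes of the expression table, whatever their values. The study compared DRG at spinal levels L4-5 (lumbar), which supply mainly the hind limb, with DRG at L6-S1 (sacral), which hold neurons that supply the pelvic viscera, and asked whether sex mattered at either level.

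All mice were homozygous for Trpv1tm2Bbm, a reporter allele in which cells that express Trpv1 also make alkaline phosphatase and a nuclear beta-galactosidase, and were 6-8 weeks old. There were 5 male donors (M1 to M5) and 5 female donors (F1 to F5), each with 1 lumbar and 1 sacral library, so that 4 groups of 5 libraries were formed. No group was treated. The study's methods count 5 male and 5 female mice, but every donor is labelled with 2 animal numbers, and whether cells of 2 mice were pooled was not stated. Ganglia were digested with collagenase and trypsin, the cells were given a substrate that beta-galactosidase turns fluorescent, and only the brightest of the positive cells were sorted. The sort was meant to leave out other neurons, and dimmer Trpv1 neurons were left out with them. Marker RNA of other neuron types and of glia was still present, as given below. RNA was amplified before sequencing. The values are log2 RPKM, where RPKM divides reads by the gene's length in kilobases and by a size for the library, and RPKM itself is given below where genes are compared with one another. Reads on genes, worked back from the table, numbered 43906566 to 66407318 per library. The library size behind the deposited values was not this total: relative to it, and to the median library, lumbar values were multiplied by 0.983 to 1.36 and sacral values by 0.853 to 1.06, which makes level differences towards sacral DRG smaller than per library total.

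Opioid receptors are G protein-coupled receptors that act through Gi/o proteins. In sensory neurons they lower calcium entry at the terminals, open potassium channels and reduce cyclic AMP, and this is the peripheral part of opioid analgesia. Oprm1 encodes the mu receptor, the main target of morphine, Oprd1 the delta receptor, Oprk1 the kappa receptor and Oprl1 the nociceptin receptor, which binds the classical opioid peptides poorly. Their ligands are cut from large precursors: enkephalins from proenkephalin (Penk), dynorphins from prodynorphin (Pdyn), nociceptin from prepronociceptin (Pnoc), and beta-endorphin, together with melanocortins and corticotropin, from pro-opiomelanocortin (Pomc).

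The precursors differ in how many copies of the shared core they encode and in its last residue, and these 15-base cores are shown because that residue separates Met-enkephalin from Leu-enkephalin peptides. They were read in frame from the coding sequences of the mm9 annotation (NCBIM37), 5′ to 3′ on the coding strand, with the fifth codon in capitals: ATG encodes methionine, CTG or TTG leucine and ACC threonine.
Penk copy 1: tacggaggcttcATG
Penk copy 3: tatggcggcttcATG
Penk copy 6: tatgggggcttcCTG
Penk copy 7: tacgggggctttATG
Pdyn copy 1: tatggcggctttTTG
Pdyn copy 2: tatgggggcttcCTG
Pdyn copy 3: tatggtggtttcCTG
Pomc copy 1: tacggtggcttcATG
Pnoc copy 1: tttgggggcttcACC
Penk held 7 copies in its last exon, 6 ending in methionine and 1 in leucine, between chr4:4060995-4061009 and chr4:4061481-4061495 on the minus strand. Copy 2 had the same bases as copy 1, and copies 4 and 5 ended in methionine with other codons for the shared residues. Pdyn held 3 copies, all ending in leucine, between chr2:129513809-129513823 and chr2:129513974-129513988 on the minus strand. Pdyn copy 2 was identical to Penk copy 6. Pomc held 1 copy, at chr12:3960373-3960387 on the plus strand, which begins beta-endorphin, and Pnoc held 1 related core at chr14:66023715-66023729 on the minus strand, which begins nociceptin with a phenylalanine codon in place of tyrosine. All these cores lie in coding exons.

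Across the 20 libraries the mu receptor and proenkephalin RNAs were the most abundant of the 8, and the others were low. The median was 11.6 RPKM for Oprm1, 10.1 for Penk, 1.63 for Oprd1, 1.28 for Oprl1, 1.0004 for Oprk1, 0.431 for Pomc, 0.0676 for Pdyn and 0.0484 for Pnoc. Neighbours in this order did not all stand apart. Oprm1 exceeded Penk in 11 of 20 libraries, Oprd1 exceeded Oprl1 in 11 and Oprl1 exceeded Oprk1 in 11, whereas Penk exceeded Oprd1 in 19, Oprk1 exceeded Pomc in 18 and Pomc exceeded Pdyn in 19. The order also differed with the level: in sacral DRG Penk, at a median of 33.0 RPKM, came before Oprm1, at 16.3, and Oprk1, at 2.10, moved ahead of Oprd1, at 1.41, and Oprl1, at 1.27. Of the 8 genes, 6 had a value in every library, Pdyn lacked one in 4 libraries and Pnoc in 6. The plot of all values by library shows these bands.

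**Figure D1:**
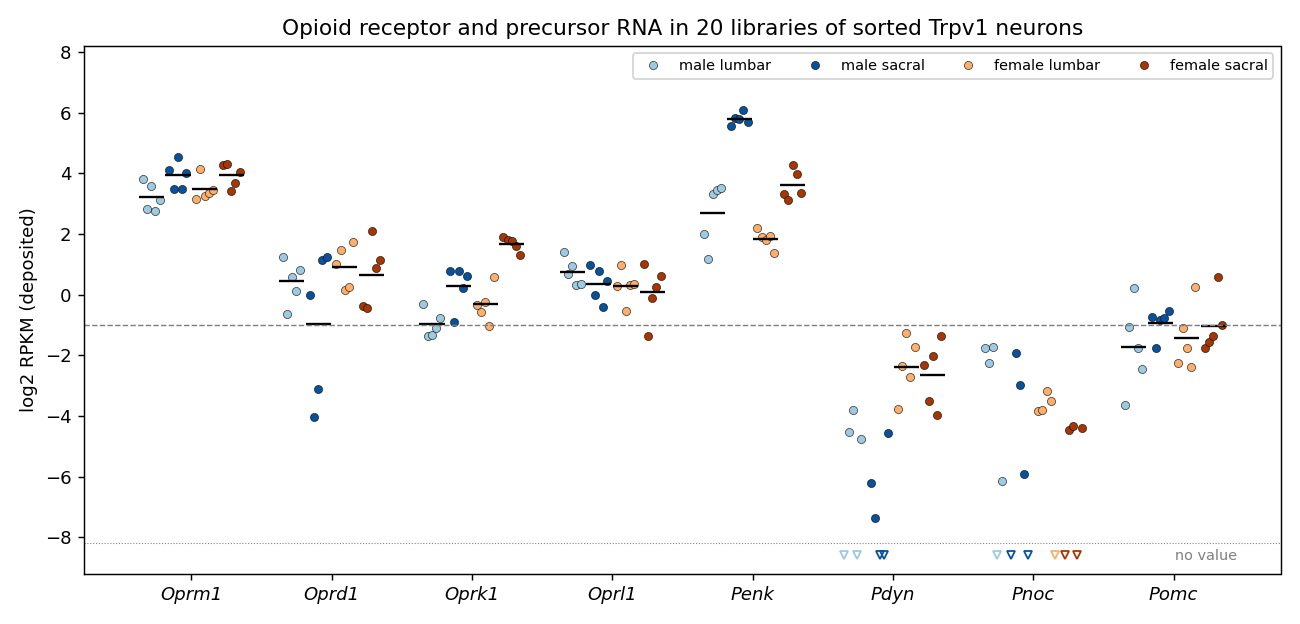
Deposited log2 RPKM of the 8 opioid genes in each of the 20 libraries, with a point for each library, coloured by sex and level, and a bar at the mean of groups with 5 values. Triangles below the dotted line are libraries with no value, and the dashed line is the filter at -1. Penk and Oprm1 lie highest, the male sacral Penk values stand above all others, and within each level the female Pdyn values lie above the male ones.

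Between the levels, 3 of the 6 members that could be tested rose in sacral DRG, namely Penk, Oprk1 and Oprm1, although the sign of Oprm1 turned with a glial covariate, and none rose in lumbar DRG. Differences were tested with limma on the log2 values of all genes whose mean was above -1 in at least 1 group, with donor as a random block and Benjamini-Hochberg adjustment, and a gene was called at an adjusted p of at most 0.05. Values are lumbar minus sacral, so a negative value means more RNA in sacral DRG. In this comparison 7436 of 16304 genes were called, or 45.6%, with 30.3% of the tested genes called as higher in sacral and 15.3% as higher in lumbar DRG, so 3 calls among 6 is close to the share over all genes. The median difference of all tested genes was -0.11. Pdyn and Pnoc did not pass the filter. In bulk RNA of this kind, fewer cells that express a gene and less of its RNA per cell cannot be told apart.

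Penk, the enkephalin precursor (ENSMUSG00000045573, chr4:4060678-4065966, minus strand), had the largest difference of the 8. In lumbar libraries of male donors M1 to M5 it was at 4.02, 2.24, 10.04, 10.95 and 11.4 RPKM, and in their sacral libraries at 46.7, 57.2, 55.1, 68.4 and 51.8. In lumbar libraries of female donors F1 to F5 it was at 4.56, 3.75, 3.51, 3.799 and 2.61 RPKM, and in their sacral libraries at 10.01, 8.62, 19.3, 15.8 and 10.1. Within each sex the levels did not overlap, and all 10 donors had more in sacral DRG, by 2.19-fold in F1 to 25.5-fold in M2. The log2 difference was -2.43 (standard error 0.22, adjusted p = 2.19e-07 from limma), a 5.39-fold higher level in sacral DRG. Per library total the donor folds ran from 2.58 in F2 to 40.5 in M2. Penk was called in all 29 alternative settings, from -3.10 to -1.76. Penk shares 233 of its 1634 exon bases with the non-coding A830012C17Rik on the opposite strand, whose own level reached 0.574 RPKM at most, and counting was not stated to use the strand.

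Oprk1, the kappa receptor gene (ENSMUSG00000025905, chr1:5578574-5596212, plus strand), rose in sacral DRG in all 10 donors. In lumbar libraries it was at 0.802, 0.385, 0.394, 0.469 and 0.583 RPKM in males M1 to M5 and at 0.798, 0.666, 0.844, 0.492 and 1.497 in females F1 to F5. In sacral libraries it was at 1.71, 0.532, 1.71, 1.16 and 1.53 RPKM in the males and at 3.73, 3.51, 3.37, 3.06 and 2.49 in the females. The female levels did not overlap, and among males the sacral library of M2 lay within the lumbar range. The log2 difference was -1.64 (standard error 0.21, adjusted p = 6.4e-06 from limma), which is 3.11-fold more in sacral DRG, with folds of 1.38 in M2 to 6.22 in F4. These values rested on 105 to 592 reads in lumbar and 210 to 1469 reads in sacral libraries. With a glial marker mean as a covariate the call was lost, at -0.98 (adjusted p = 0.39 from limma), and with a pseudocount of 1 RPKM the difference was smaller but still called, at -0.89.

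Oprm1, the mu receptor gene (ENSMUSG00000000766, chr10:3308332-3588035, minus strand), had a smaller difference at a much higher level. In lumbar libraries it was at 13.98, 7.06, 11.98, 6.75 and 8.66 RPKM in M1 to M5 and at 8.94, 17.6, 9.44, 10.2 and 11.003 in F1 to F5. In sacral libraries it was at 17.4, 11.2, 23.3, 11.3 and 16.3 RPKM in the males and at 19.2, 19.9, 10.6, 12.9 and 16.4 in the females. The levels overlapped in both sexes, yet every donor had more in sacral DRG, by 1.13-fold in F3 to 2.15-fold in F1. The log2 difference was -0.60 (standard error 0.15, adjusted p = 0.0028 from limma), or 1.51-fold, against the median of -0.11 over all tested genes. In males alone it was -0.72 (adjusted p = 0.015) and in females alone -0.47, where it did not pass the threshold (adjusted p = 0.10 from limma in the same fit). It was called with TMM factors, at -0.49, and after quantile normalization, at -0.41, and per library total, at -0.92 where the median of all genes was -0.44, but not with the values set against 5 pan-neuronal markers, at -0.11, and it changed sign with the glial covariate, to 0.26 (adjusted p = 0.78 from limma). Its exons share 96 of 8156 bases with Ipcef1 on the opposite strand, which was at 0.490 RPKM at most.

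**Figure D2:**
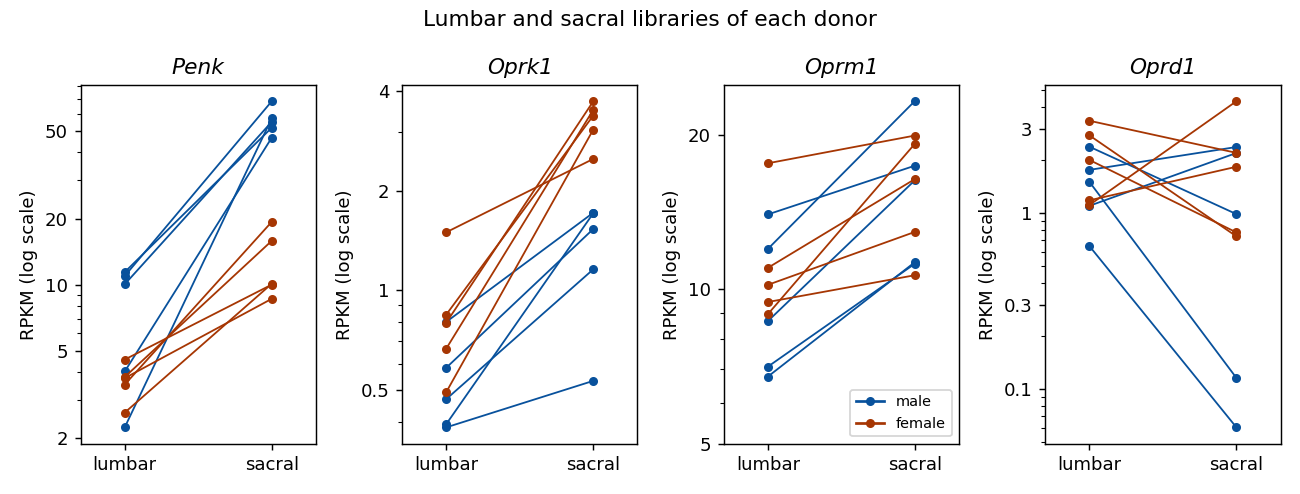
RPKM on a log scale of Penk, Oprk1, Oprm1 and Oprd1 in the lumbar and sacral library of each donor, joined by a line, with males in blue and females in brown. Every line rises to sacral DRG for Penk, Oprk1 and Oprm1, whereas 4 of the 10 lines rise for Oprd1; the fitted difference of Oprm1 changed sign with the glial covariate.

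The other 3 tested members did not pass the threshold between the levels, and their donors were split. Oprd1, the delta receptor gene (ENSMUSG00000050511, chr4:131666641-131700401, minus strand), was the most variable of the 4 receptors. It ranged from 0.649 to 3.35 RPKM in lumbar libraries (median 1.63) and from 0.0603 to 4.32 in sacral libraries (median 1.41). The lowest values were the sacral libraries of M2 and M3, with 14 and 23 reads, where the lumbar libraries of these donors held 104 and 265. Of the 10 donors, 4 had more Oprd1 in sacral and 6 in lumbar DRG, and the log2 difference was 0.83 (standard error 0.52, adjusted p = 0.20 from limma). Oprl1, the nociceptin receptor gene (ENSMUSG00000027584, chr2:181449721-181455690, plus strand), ranged from 0.693 to 2.63 RPKM in lumbar and from 0.390 to 2.04 in sacral libraries, with medians of 1.28 and 1.27. Its difference was 0.29 (standard error 0.25, adjusted p = 0.35), with 6 donors higher in lumbar DRG, and it was 0.020 without donor F2 and -0.039 per library total. Both Oprd1 and Oprl1 were called as higher in lumbar DRG when the values were set against the pan-neuronal markers, at 1.31 and 0.77, a scaling under which the median of all genes moved to 0.37.

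Pomc (ENSMUSG00000020660, chr12:3954951-3960618, plus strand) was covered by only 4 to 74 reads per library. Its median was 0.295 RPKM in lumbar and 0.531 in sacral libraries, 6 of 10 donors had more in sacral DRG, and the difference of -0.62 (standard error 0.42, adjusted p = 0.24 from limma) did not pass the threshold. The Pomc difference was -0.30 without F4 and -0.36 without M1, and per library total it was -0.95 and passed (adjusted p = 0.044 from limma). Melanocortin receptors bind other products of the Pomc precursor, and none of Mc1r, Mc2r, Mc3r, Mc4r and Mc5r passed the filter. Pnoc (ENSMUSG00000045731, chr14:66019510-66044046, minus strand) had at most 29 reads in a library and none in 6 libraries. Without the filter the limma difference of Pnoc was 0.74, with a standard error of 0.68 and an adjusted p of 0.45, so no level difference was detectable at this depth.

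Because the receptors are compared per kilobase, their shares of the summed receptor RPKM can be followed from library to library. Oprm1 made up 55.2% to 87.6% of the sum over the 4 receptors (median 74.0%) and was the highest receptor in all 20 libraries. The share of Oprk1 had a median of 4.399% in lumbar and 9.40% in sacral libraries, and it was 11.04% to 17.5% in the female sacral libraries. Oprd1 ranged from 0.430% to 22.4% and Oprl1 from 1.59% to 16.4%. Among the precursors Penk made up 63.5% to 98.0% of the sum in lumbar and 91.0% to 99.1% in sacral libraries. These shares are descriptions and carry no test. They also depend on the gene length used, which spans all annotated exons. For Oprm1 this is 8156 bases with 31 coding transcripts, of which Oprm1-001 has 1570 bases.

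Sex differences were tested within each level in the same fit, as female minus male. In sacral DRG 6 of 16321 genes were called, or 0.0368%, and Penk was one of them. Its mean log2 RPKM was 5.79 ± 0.20 (SD, n = 5) in male and 3.60 ± 0.50 (SD, n = 5) in female sacral libraries. The male values of 46.7 to 68.4 RPKM lay above the female values of 8.62 to 19.3 without overlap. The log2 difference was -2.19 (standard error 0.34, adjusted p = 0.011 from limma), 4.55-fold more in males. The adjusted p was 0.052 without donor F1, 0.064 without F5 and 0.051 with the glial covariate, so that the call was lost there, while the difference stayed between -2.35 and -2.06 in all settings. In lumbar DRG Penk differed by -0.85 (standard error 0.34, adjusted p = 0.37), and the sexes overlapped because M1 lay within the female range and M2 below it. Summed glial markers, in RPKM, were 1478 to 2119 in male sacral and 1256 to 1743 in female sacral libraries, and their part in this difference was not tested beyond the covariate.

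In lumbar DRG 7 of 16386 genes were called by sex, or 0.0427%, and 0 of the members were among them by limma or by voom. At an unadjusted p under 0.05, 1 member passed, which was Penk, as did 11.4% of all tested genes. The sacral and lumbar sex differences of Penk were set against each other in an interaction term, which was -1.34 (standard error 0.44, unadjusted p = 0.0065, adjusted p = 0.96 from limma). By limma, 0 of 16304 genes, or 0%, had a called interaction, with 668 at an unadjusted p under 0.05 and 0 by voom. Whether the sex difference of Penk differs between the levels was therefore not shown. The level difference of Penk was called in each sex, at -3.10 (standard error 0.31, adjusted p = 9.64e-06) in males and -1.76 (standard error 0.31, adjusted p = 8.48e-04) in females.

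Oprk1 leaned the other way from Penk in sacral DRG. Its female values of 2.49 to 3.73 RPKM lay above the male values of 0.532 to 1.71 without overlap, a log2 difference of 1.39 (standard error 0.32) that did not pass the adjustment over all genes (unadjusted p = 3.28e-04, adjusted p = 0.19 from limma). It was called with a pseudocount of 1 (adjusted p = 0.015) and by voom on worked-back reads (adjusted p = 0.0099), so the call depends on these choices. That voom fit called 36 genes by sex in sacral DRG, against 6 in the fit as reported. In lumbar DRG the sexes overlapped, with a difference of 0.66 (adjusted p = 0.44), and the interaction was 0.72 (standard error 0.42, adjusted p = 0.9996). For the other receptors the sex differences in sacral DRG were 0.01 for Oprm1, 1.62 for Oprd1 (standard error 0.80) and -0.27 for Oprl1, and in lumbar DRG 0.25, 0.49 and -0.46. Those of Pomc were -0.09 and 0.30. None of these passed the threshold (adjusted p from 0.62 to 0.996 from limma).

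**Figure D3:**
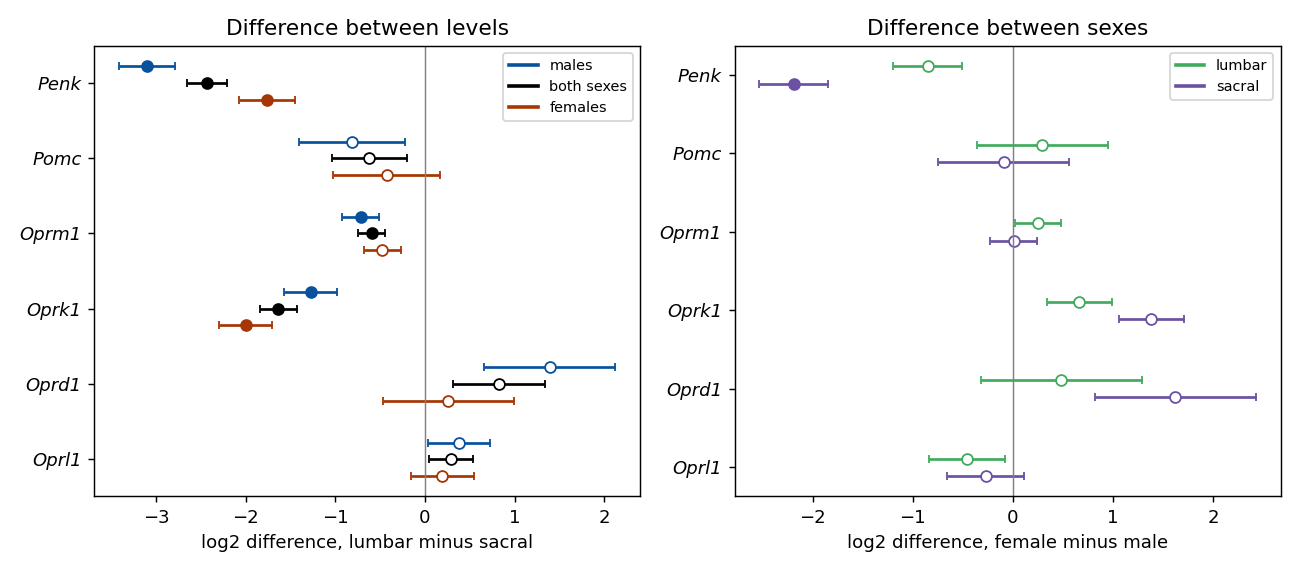
Log2 differences of the 6 tested members from limma, between levels (left; lumbar minus sacral, in males, both sexes and females) and between sexes (right; female minus male, in lumbar and sacral DRG). Lines are standard errors and filled points have an adjusted p of at most 0.05. Penk and Oprk1 lie left of 0 between the levels in both sexes, and in sacral DRG they lie on opposite sides of 0 between the sexes, where only Penk is filled.

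Pdyn, the dynorphin precursor (ENSMUSG00000027400, chr2:129512301-129525580, minus strand), was low everywhere but was split by sex. In males M1 to M5 the lumbar libraries held 0, 5, 9, 0 and 4 reads and the sacral libraries 2, 1, 0, 0 and 6. In females F1 to F5 the lumbar libraries held 8, 33, 57, 16 and 50 reads and the sacral libraries 33, 15, 45, 9 and 75. The 10 male libraries summed to 27 reads and the 10 female libraries to 341. A library with 0 reads allows up to 3 reads by counting error alone. With the reads of a donor's 2 libraries summed and divided by their summed totals, as RPM, which ignores gene length, Pdyn was at 0.053 ± 0.046 (SD, n = 5 donors) in males and 0.579 ± 0.319 (SD, n = 5 donors) in females. All 5 females lay above all 5 males, by a difference of 0.526 RPM (exact permutation test, two-sided p = 0.0079, the smallest this design allows). In deposited RPKM the sexes were apart within each level but overlapped across levels, with 0.0712 in M3 lumbar against 0.0640 in F4 sacral. This contrast was tested after its values were seen. Summed markers of non-peptidergic and itch neurons also differed in range, at 52.4 to 107 RPKM in male and 102 to 210 RPKM in female lumbar libraries and at 96.5 to 158 and 118 to 238 RPKM in sacral ones, and their part in the Pdyn difference was not tested. Of these 6 markers, 0 were called by sex at either level. Other lists shifted too: summed endothelial markers were 17.4 to 41.5 RPKM in male and 5.70 to 29.4 RPKM in female lumbar libraries. Fitted across all genes without the filter, the sacral sex difference of Pdyn was 3.38 (standard error 0.78, adjusted p = 0.28 from limma). With voom on worked-back reads of all genes with at least 10 reads it was 4.25 (adjusted p = 0.044). In lumbar DRG the same fits gave 2.004 (adjusted p = 0.45) and 3.54 (adjusted p = 0.24). The level difference of Pdyn was 0.96 (standard error 0.51) with an adjusted p of 0.16, over the libraries with a value.

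**Figure D4:**
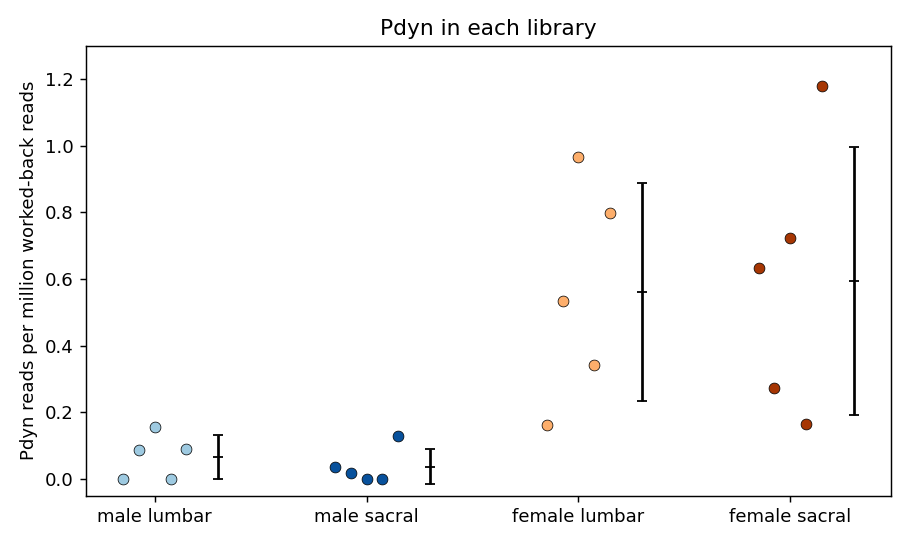
Pdyn in RPM (reads relative to all reads on genes) in each library, by sex and level, with the mean and SD (n = 5 libraries) beside each group. The male libraries lie between 0 and 0.155 RPM and the female libraries between 0.162 and 1.18; in RPKM M3 lumbar (0.0712) lay above F4 sacral (0.0640).

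The other genes of opioid signalling were taken from lists chosen by function. Beside the count of each list stands the share over all tested genes, 30.3% called as higher in sacral and 15.3% in lumbar DRG. Precursor processing genes encode the convertases and helpers that cut and finish neuropeptides. Of 8 tested, 7 rose in sacral DRG and 0 in lumbar DRG, with a median difference of -0.53. They included Pcsk1, which encodes prohormone convertase PC1/3, at -1.74 (standard error 0.14, adjusted p = 2.95e-08 from limma), Pcsk2, which encodes convertase PC2, at -1.02, and Cpe, which encodes the carboxypeptidase that trims the cut ends, at -0.79, each higher in sacral DRG in 10 of 10 donors. Of 8 genes for peptidases that break down opioid peptides, 4 rose in sacral and 1 in lumbar DRG, with a median of -0.44. The one that was higher in lumbar DRG was Mme, which encodes neprilysin, an enkephalin-cleaving peptidase, at 0.83 (standard error 0.19, adjusted p = 0.0013) in 10 of 10 donors, although its sign turned with the glial covariate, to -0.34. Dpp3, Npepps and Ece2 were at -0.55 each, and Npepps turned to 0.074 with that covariate.

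Downstream of the receptors, 8 of 9 Gi/o subunit genes rose in sacral and 0 in lumbar DRG, with a median of -0.28. Gnaz and Gnao1 were at -0.60 and -0.59 and Gng3 at -0.40, which turned to 0.18 with the glial covariate and to 0.085 against the pan-neuronal markers. Of 10 tested effector genes, which encode potassium channels, calcium channels and adenylyl cyclases, 8 rose in sacral and 1 in lumbar DRG, with a median of -0.64. Kcnj9, an inwardly rectifying potassium channel subunit, was at -1.52 (standard error 0.44, adjusted p = 0.0082 from limma), Adcy8 at -1.04 and Cacna1b, the pore of the N-type calcium channel that opioids inhibit, at -0.99. Kcnj9 was low, with medians of 0.192 RPKM in lumbar and 0.542 in sacral libraries, and higher in sacral DRG in 8 donors. Its difference ran from -2.02 to -0.31 over 27 alternative settings, and its call was lost in 3 of them. Adcy6 was higher in lumbar DRG, at 0.75. Adcy8 was no longer called without donor F2 (adjusted p = 0.053). Of 12 genes for receptor kinases, arrestins and RGS proteins, which limit receptor signalling, 8 rose in sacral and 0 in lumbar DRG, with a median of -0.47, among them Rgs9 at -1.22, Rgs14 at -1.11 and Rgs4 at -0.63. Rgs14 lost its call without M1, M3, M5 or F3 (adjusted p from 0.061 to 0.11) and when donor was a fixed term. Of 5 other opioid-binding proteins and partners tested, Gprasp1, a sorting protein of the delta receptor, was at -1.05, and Cxcr7, a scavenger receptor for opioid peptides, was higher in lumbar DRG at 0.78, which turned to -0.23 with the glial covariate. The other 3 did not pass the threshold.

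Over these lists 39 of 52 tested genes were called between the levels, 36 of them higher in sacral DRG, where 30.3% of all tested genes were called in that direction. The whole set of values depends on the scaling. With TMM factors the median of all genes was 0.00 and 50.99% of all calls were higher in sacral DRG, after quantile normalization 52.8%, per library total 88.0%, and against the pan-neuronal markers 6.89%, compared with 66.5% with the values as deposited. Per library total 47 list genes were called, 44 of them higher in sacral DRG. Against the pan-neuronal markers 24 list genes were called, 18 of them higher in lumbar DRG. Of the named genes, Dpp3, Npepps, Ece2, Gnaz, Gnao1, Gng3, Kcnj9, Adcy8, Rgs14 and Rgs4 were no longer called. With the glial covariate Pcsk1, at -1.56, was the only list gene still called, and the differences of others shrank, for example to -0.29 for Pcsk2, -0.28 for Cacna1b, -0.27 for Rgs9, -0.071 for Ece2 and -0.052 for Gnao1. No gene of these lists was called between the sexes at either level.

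**Figure D5:**
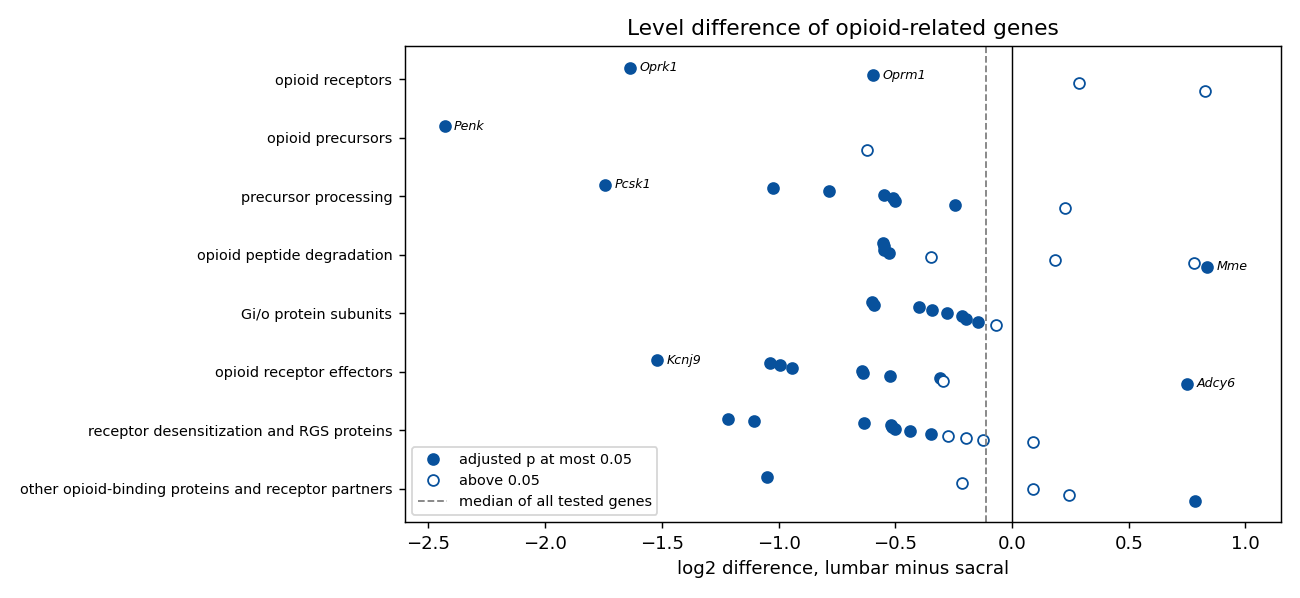
Log2 difference, lumbar minus sacral, of each tested gene of the lists, 1 point per gene, filled where the adjusted p from limma is at most 0.05; the dashed line is the median of all tested genes, at -0.11. Most filled points lie to the left, with Penk, Pcsk1, Oprk1 and Kcnj9 farthest, and Mme, Adcy6 and Cxcr7 are the filled points to the right of 0, of which Mme and Cxcr7 changed sign with the glial covariate.

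Markers of other cells moved with the level. Over all tested genes, 15.3% were called as higher in lumbar and 30.3% as higher in sacral DRG. Of 10 glial markers 9 rose in lumbar DRG, and their summed RPKM was 2040 to 4047 in lumbar and 1256 to 2119 in sacral libraries, higher in lumbar DRG in 10 of 10 donors. All 5 pan-neuronal markers rose in sacral DRG, with sums of 608 to 996 RPKM in lumbar and 878 to 1209 in sacral libraries. None of these 15 markers was at 0 in any library. The markers of Trpv1 and peptidergic neurons summed to 1584 to 2618 RPKM and 5 of 7 rose in sacral DRG. Most of that sum came from Calca and Tac1, with lumbar medians of 1002 and 584 RPKM, and neither was called. Trpv1 itself had medians of 12.9 RPKM in lumbar and 27.9 in sacral libraries. Markers of large myelinated neurons summed to 20.3 to 53.1 RPKM, with 3 of 5 tested higher in lumbar DRG. Those of non-peptidergic and itch neurons summed to 52.4 to 238 RPKM, and those of C low-threshold mechanoreceptors to 21.1 to 128. No unsorted library was among the 20, so enrichment by the sort was not tested. Of the tested markers, all 3 of C low-threshold mechanoreceptors and 2 of 6 of non-peptidergic and itch neurons rose in sacral DRG. The latter, 2 of 6, is close to the share over all genes. In lumbar DRG 1 of 3 of macrophages, 3 of 3 of endothelial cells and 2 of 3 of fibroblasts rose. The remaining fibroblast marker, Dcn, was the most abundant of its list, at -0.35, and was not called. Summed fibroblast markers had medians of 86.3 RPKM in lumbar and 116 RPKM in sacral libraries, and were higher in lumbar DRG in 3 of 10 donors. Neutrophil markers had no value in 7 to 10 libraries each, and their sums had medians of 2.64 RPKM in lumbar and 2.41 RPKM in sacral libraries. The fit leaves empty libraries out and called 3 of the 4 as higher in sacral DRG. S100a8, S100a9 and Ngp were higher there in 4, 3 and 3 donors, where only donors with a value at both levels could count. With empty libraries taken as 0, the summed markers were higher in lumbar DRG in 3 of 10 donors. With the glial marker mean as a covariate 73 genes were called, 72 of them higher in sacral DRG, of which Penk was the only member, at -2.73 (standard error 0.45, adjusted p = 0.0080 from limma). Since the glial mean was higher in lumbar DRG in every donor, it carries much of the level itself, and its part in the differences of Oprm1 and Oprk1 cannot be told apart from level. Over the 20 libraries the Pearson r with the glial mean was -0.83 for Oprm1, -0.84 for Oprk1 and -0.45 for Penk. After each group's mean was taken out, it was -0.75, -0.47 and 0.18.

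Genes with a pattern most like each member over the 20 libraries were sought among 15318 tested genes with a value in every library, as a description. The libraries share level, sex and depth, so such likeness carries no test. For Oprm1 these were Gm5567, Jup and Elfn1, with r of 0.94, 0.93 and 0.93, and the r remained at 0.92, 0.93 and 0.91 once group means were taken out. For Oprk1 they were Wasf1, Cplx1 and Tbx3, each at 0.91, which fell to 0.63, 0.51 and 0.47 within groups. For Penk they were Zfp655, Serpina3c and Ndn, each at 0.85, and within groups 0.50, 0.18 and 0.02, so that their likeness to Penk lay mainly in the group means. For Oprd1 they were Serpina1e, Fam167a and Anks1b (0.86, 0.82 and 0.81), for Oprl1 Mob1b, 2410131K14Rik and Aph1b (0.84, 0.79 and 0.78), and for Pomc 4632415L05Rik, 3110040N11Rik and Gm11708 (0.78 each). The members themselves were less alike. The highest r between any pair of the 6 complete members was 0.63, for Oprm1 and Oprk1, followed by 0.37 for Oprm1 and Penk, and within groups these were 0.39 and -0.25. Within groups the highest was 0.49, for Oprm1 and Oprl1.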

How the data were processed

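RNA-seq of sorted Trpv1 neurons gave 20 libraries, grouped by sex and spinal level from their labels. Per the labels and the study's methods, the authors aligned reads to mm9 with Subread, counted uniquely mapped reads on Ensembl genes with featureCounts, and applied voom from limma 3.26.9 with TMM scaling from edgeR 3.12.1. What the authors deposited is a table of log2 RPKM, with 319449 empty cells and the same median, 0.93, in every library. Gene names and positions came from the NCBIM37 annotation (37205 of 37620 genes matched).

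The filter kept 16422 genes, 6 of the 8 members among them, that had at least 3 values in some group and a group mean over -1. limma 3.58.1 with statmod 1.5.0 in R 4.3.3 fitted a mean for each of the 4 groups, a mean-variance trend and donor as a random block (correlation 0.17). The lumbar and sacral libraries of a donor carry the same animal numbers, and their deviations from group means correlated at 0.18 on average (0.04 to 0.30), against -0.04 between donors. P-values were adjusted by Benjamini-Hochberg over all tested genes. The fit was also run on simulated log2 values for genes with a value in every library. That run does not cover empty cells or differences as widespread as those between the levels. Empty cells stayed missing.

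Reads were worked back from the log2 steps: 98.1% of values were whole within 0.01 of a read. They give the depth (43906566 to 66407318 reads per library) and the alternatives with TMM, written out by hand, and voom. Cores were read from coding transcripts with Python 3.11.15 and pandas 2.3.3; numpy 2.4.6, scipy 1.17.1 and matplotlib 3.10.9 served the summaries and plots.

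The members and all lists were chosen with earlier results of these data known. Named genes are the 8 members, up to 3 per list and direction with the largest level difference among those called, and the 3 genes most correlated with each complete member. Alternatives were other scalings, pseudocounts, filters and donor models, voom, each sex alone, a glial covariate, a stricter threshold and each donor left out. Scaling to pan-neuronal markers or to library totals, voom on all genes with at least 10 reads, and the Pdyn test by sex were added after seeing the data. A gene of the lists is not reported here. The marker lists covered Trpv1 and peptidergic, non-peptidergic, C low-threshold and large myelinated neurons, all neurons, glia, macrophages, endothelial cells, fibroblasts and neutrophils.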

Additional observations from a re-analysis of the deposited data

Results flagged for a closer look

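Of 28 sets of 4 or 5 values of a member in a group, 2 held a library far from the others, where chance gives about 1 in 20. Pnoc in the male lumbar group was lowest in donor M5, at a log2 RPKM of -6.15, which is 1 read, with the other values between -2.24 and -1.73. Pomc in the male sacral group was lowest in donor M2, at -1.77, with 17 reads, and the others lay between -0.84 and -0.54. Neither gene was called in the comparisons as reported.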

How the results depend on the processing

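Between the levels, 3 members were called in the analysis as reported, 1 with the glial covariate, and 2 to 4 in the other settings. In sacral DRG, 1 member was called by sex as reported, 0 with the glial covariate or the stricter threshold of 0.01, 2 with a pseudocount of 1 or with voom on worked-back reads, 3 with voom on all genes with at least 10 reads (chosen after seeing the data), and 0 to 1 with each donor left out. Over all genes, voom on worked-back reads called 36 in that comparison, against 6 as reported. Of the list genes, 39 were called as reported, 1 with the glial covariate (Pcsk1, at -1.56), 24 with pan-neuronal scaling, 25 in males alone and 21 in females alone.

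Signs that changed were as follows. With the glial covariate, the level difference became 0.26 for Oprm1, -0.34 for Mme, 0.074 for Npepps, 0.18 for Gng3 and -0.23 for Cxcr7. Scaling to library totals, chosen after seeing the data, gave -0.039 for Oprl1. Scaling to pan-neuronal markers, also chosen then, gave 0.085 for Gng3. The sacral sex difference of Oprm1, near 0, became -0.0093 with array weights, -0.30 with the glial covariate, -0.060 with pan-neuronal scaling and -0.013 after quantile normalization, and lay between -0.10 and 0.16 with each donor left out. That of Oprl1 ranged from -0.51 to 0.088 and that of Pomc from -0.49 to 0.10 with each donor left out, and Pomc was at 0.013 with a pseudocount of 1. The lumbar sex difference of Oprm1 was -0.035 with the glial covariate and -0.0085 with pan-neuronal scaling, and that of Pomc -0.10 with array weights and -0.18 to 0.78 with each donor left out. None of these was called under that setting, and the cause was not tested.

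Without the replicate block the level difference of Penk had an adjusted p of 1.27e-06, and with the replicate block as a fixed effect 3.66e-06; neither donor model changed a call of a member. The sex difference of Pdyn was 0.422 to 0.609 RPM with each donor left out. Pdyn and Pnoc could be fitted only without the filter on low values. With 0 to 75 reads for Pdyn and 0 to 29 for Pnoc, depth limits what can be said of them.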
